A study of Arabidopsis thaliana with 9 samples.

Results

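The roots of plants with a mutation in MYB36 had lower levels of 9 Arabidopsis thaliana genes about which little is recorded. They are AT1G71740, AT2G40113, AT1G30750, AT1G43020, AT4G02090, AT3G48346, AT5G42655, AT5G65530, which encodes a receptor-like cytoplasmic kinase, and AT5G43540, which encodes a zinc finger protein. They were chosen by their lower log2 expression in both mutant lines of this experiment, against the wild type, and then listed by locus. They are 9 of 16546 genes that the array annotation pairs with a probe set of 1 gene only, and each has 1 such probe set. The annotation used here gives the other 7 genes no symbol beyond the locus and no function.

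Arrays were made of roots of 2-week-old plants of 3 lines: the mutants myb36-1 and myb36-2, and the wild type Col-0, with 3 arrays per line. The plants grew on MGRL agar to which sucrose had been added, and RNA of the whole root was hybridised, so each value averages all root cell types. The sample titles give each mutant line a code, and that of myb36-2, GK543B11, has the form of line codes in the GABI-Kat collection of T-DNA insertions. The labels do not state the kind of mutation in either line. No probe set is named for MYB36 itself, so its transcript was not checked. Nor do the labels state whether the 3 arrays of each line had separate plants or cultures as their source. The p-values therefore measure no more than the spread between arrays, which may be technical.

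MYB36 is a transcription factor of the R2R3-MYB family that acts in the root endodermis, the innermost cortical cell layer around the vascular tissue. It switches on genes that build the Casparian strip, a ring of lignin in the endodermal cell walls that blocks free diffusion between soil and stele. Receptor-like cytoplasmic kinases are protein kinases without an extracellular domain that relay signals from membrane receptors, and zinc finger proteins include many transcription factors.

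Values are log2 expression after RMA, so 1 unit is a doubling. The medians of the 31325 tested probe sets were 5.07 to 5.09 on the myb36-1 arrays, 5.30 to 5.34 on the myb36-2 arrays and 5.09 to 5.11 on the Col-0 arrays. Because myb36-2 stands higher as a whole, the contrasts were also computed on a common scale, after quantile normalisation over all 9 arrays. Values are as deposited unless the common scale is named. The median change over all tested probe sets in myb36-2 was 0.16 as deposited and -0.013 on the common scale. The 3 arrays per line limit the precision.

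The comparison with Col-0 chose the genes, so their falls are given as a description. AT1G71740 (probe set 13357960) was at 4.75, 4.18 and 4.55 on the myb36-1 arrays and at 3.65, 3.01 and 3.21 on the myb36-2 arrays, against 6.92, 7.30 and 7.19 on the Col-0 arrays. The 3 lines formed separate groups with myb36-2 lowest, and the highest mutant array lay 2.17 below the lowest Col-0 array. Its mean signal in myb36-1 was 16.0% of that in Col-0 (log2 difference -2.65 ± 0.19, SE, n = 3 arrays per line), and in myb36-2 it was 6.96% (-3.84 ± 0.19).

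AT2G40113 (13403107) was at 2.81, 2.79 and 2.51 in myb36-1 and at 3.12, 2.67 and 2.81 in myb36-2, against 5.64, 6.14 and 5.95 in Col-0. Here the mutants overlapped, and the gap of 2.52 to the lowest Col-0 array was the widest among the 9 genes. The measured signal was 10.8% of Col-0 in myb36-1 and 12.1% in myb36-2. These mutant values lie near the bottom of the arrays, so the shares are best read as upper limits.

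AT1G30750 (13374226) was at 5.28, 5.24 and 5.34 in myb36-1 and at 4.25, 5.02 and 4.71 in myb36-2, against 7.46, 7.51 and 7.49 in Col-0. All arrays of myb36-2 were below all arrays of myb36-1, as for AT1G71740. The SD was 0.051 in myb36-1, 0.38 in myb36-2 and 0.024 in Col-0. The signal was 21.8% of Col-0 in myb36-1 and 14.1% in myb36-2.

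AT1G43020 (13348572) was at 2.99, 2.85 and 2.67 in myb36-1 and at 2.50, 2.62 and 3.26 in myb36-2, against 4.73, 4.53 and 4.82 in Col-0. The measured signal was 27.6% of Col-0 in myb36-1 and 26.8% in myb36-2, again shares best read as upper limits because the mutant values lie near the bottom of the arrays. The myb36-2 arrays spanned the whole range of the myb36-1 arrays. No array of either mutant reached the Col-0 level.

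The kinase gene AT5G65530 (13543833) was at 7.12, 7.16 and 7.22 in myb36-1 and at 6.94, 7.26 and 7.09 in myb36-2, against 8.76, 8.88 and 8.80 in Col-0. Its signal was 31.9% of Col-0 in myb36-1 and 30.5% in myb36-2. The arrays within each line lay close together, with SDs of 0.051 in myb36-1, 0.16 in myb36-2 and 0.062 in Col-0. The zinc finger gene AT5G43540 (13510073) was at 4.43, 4.42 and 4.71 in myb36-1 and at 4.43, 4.48 and 4.17 in myb36-2, against 5.55, 5.95 and 5.97 in Col-0. Its gap between the highest mutant array and the lowest Col-0 array, 0.84, was the narrowest among the 9 genes. The signal was 40.6% of Col-0 in myb36-1 and 36.3% in myb36-2.

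The other 3 genes kept between 34.8% and 39.9% of the Col-0 signal in either mutant. AT4G02090 (13464739) was at 6.11, 5.55 and 6.08 in myb36-1 and at 5.71, 5.92 and 5.72 in myb36-2, against 7.39, 7.23 and 7.30 in Col-0. AT3G48346 (13436941) was at 7.19, 7.80 and 7.35 in myb36-1 and at 7.51, 7.23 and 7.35 in myb36-2, against 8.87, 8.71 and 8.73 in Col-0. In both genes 1 array of myb36-1 stood apart from the other two, replicate 2, which was low for AT4G02090 and high for AT3G48346. AT5G42655 (13534614) was at 5.24, 5.11 and 4.92 in myb36-1 and at 5.01, 5.04 and 5.23 in myb36-2, against 6.32, 6.57 and 6.39 in Col-0, and its mutant lines overlapped.

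**Figure D1:**
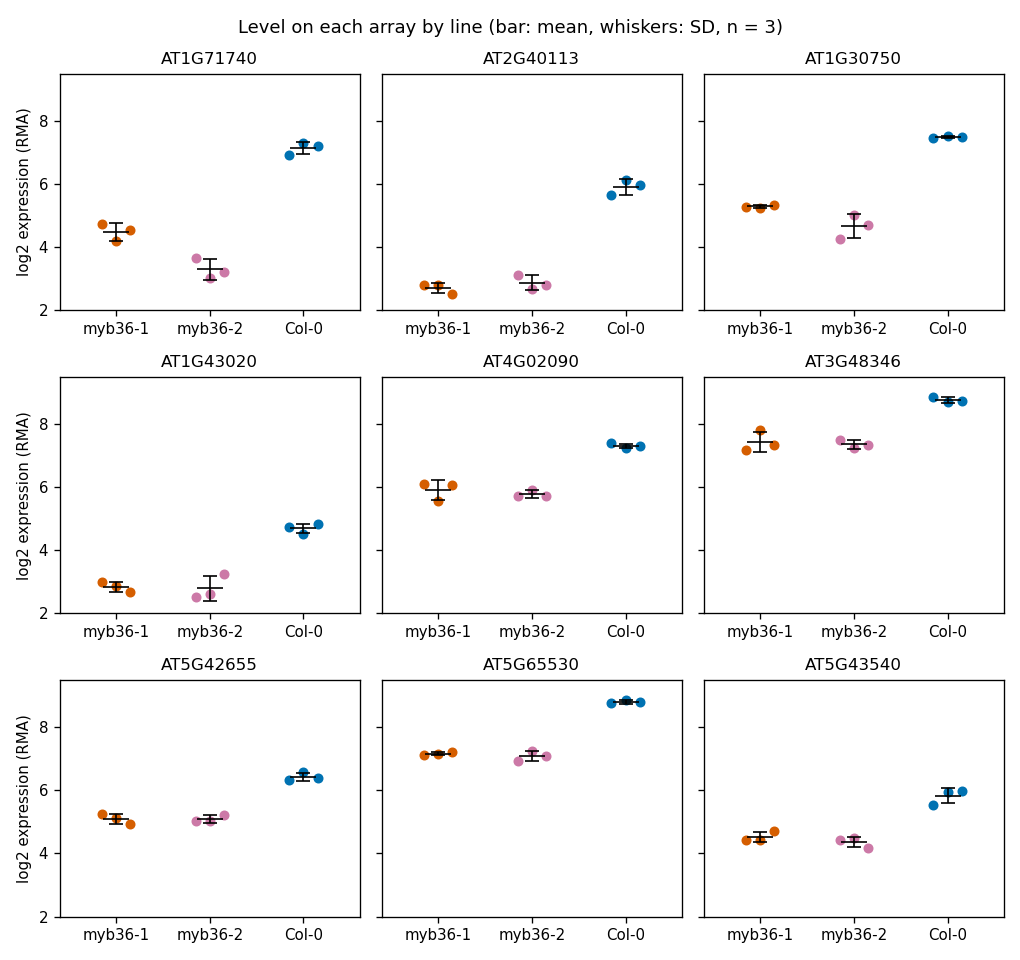
Log2 expression of the 9 genes (1 panel each, y axis) in myb36-1, myb36-2 and Col-0; points are arrays, the bar is the mean and the whiskers the SD of 3 arrays. The lowest Col-0 array stands above the highest mutant array in every panel, by 0.84 (AT5G43540) to 2.52 (AT2G40113), and only AT1G71740 and AT1G30750 have mutant lines that do not overlap.

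In all 9 genes the 6 mutant arrays lay below the 3 Col-0 arrays, which held for 2.11% of the 31325 tested probe sets. All 9 were called lower in both mutants, that is with a Benjamini-Hochberg adjusted p under 0.05 in limma in each, against 0.195% of tested probe sets, and likewise on the common scale, against 0.201%. Both counts follow from the choice of the genes. The median change of the 9 was -1.65 in myb36-1 and -1.72 in myb36-2, against -0.0054 in myb36-1 and 0.16 in myb36-2 over all tested probe sets. On the common scale the medians of the 9 were -1.62 and -1.85.

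The position of a probe set within its own array does not depend on the scale of the array, although it does depend on how well its probes bind. By this measure a signal near the bottom of the arrays of both mutants was found for 2 genes. AT2G40113 lay at the 7.2nd to 16.2nd percentile of the tested probe sets on the myb36-1 arrays and at the 6.5th to 19.3rd on the myb36-2 arrays, against the 56.1st to 62.5th on the Col-0 arrays. AT1G43020 lay at the 11.4th to 19.2nd percentile in myb36-1 and at the 4.2nd to 21.7th in myb36-2, against the 43.8th to 46.9th in Col-0. The log2 values of both on the mutant arrays, 2.50 to 3.26, lay on both sides of the 10th percentile of the arrays themselves, which was 2.59 to 2.65 in myb36-1 and 2.75 to 2.84 in myb36-2.

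AT1G71740 was low in one mutant more than in the other, at the 40.1st to 46.3rd percentile in myb36-1 and the 14.3rd to 29.7th in myb36-2, against the 72.3rd to 77.2nd in Col-0. Its range in myb36-2 overlapped those of AT2G40113 and AT1G43020 there. The fall of AT1G71740 in myb36-2 and its difference between the mutants may therefore be understated. Signals well above the bottom of the arrays remained for the other 6 genes. The kinase gene AT5G65530 was at the 75.4th to 76.4th percentile in myb36-1 and the 70.8th to 75.4th in myb36-2, against the 90.9th to 91.6th in Col-0. AT3G48346 was at the 76.3rd to 82.7th percentile in myb36-1 and the 75.1st to 77.9th in myb36-2, against the 90.5th to 91.7th in Col-0. For AT5G43540 the mutant arrays lay at the 42.8th to 45.7th percentile in myb36-1 and the 36.5th to 40.0th in myb36-2, against the 54.9th to 60.4th in Col-0. For these 6 genes the signal was reduced without reaching the bottom of the arrays. Every array was above the 50th percentile for 4 of the 9 genes in myb36-1 and 3 in myb36-2, against 8 in Col-0.

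**Figure D2:**
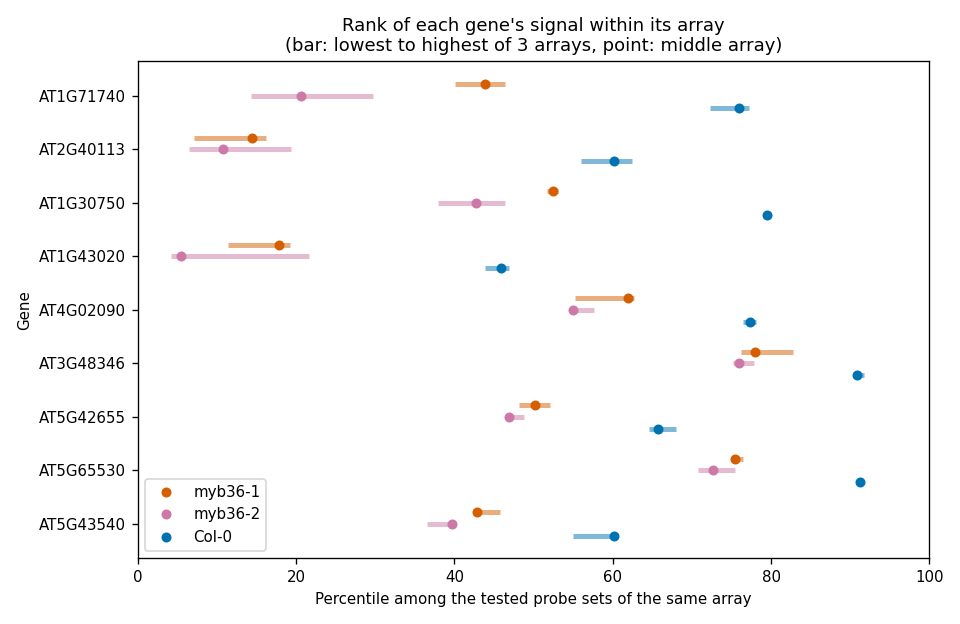
Percentile of each gene's signal among the 31325 tested probe sets of the same array (x axis) for myb36-1, myb36-2 and Col-0; bars run from the lowest to the highest of 3 arrays and points mark the middle array. AT2G40113 and AT1G43020 reach at most the 19.3rd and 21.7th percentile on the mutant arrays, whereas AT5G65530 and AT3G48346 go no lower than the 70.8th and 75.1st.

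The difference between the 2 mutants was not part of how the genes were chosen and was tested in the same limma fit, although on the same arrays. The level of AT1G71740 in myb36-1 exceeded that in myb36-2 by 1.20 ± 0.19 (SE, n = 3 arrays per line, 95% interval 0.76 to 1.63, adjusted p = 0.0064 in limma), and AT1G30750 by 0.63 ± 0.16 (0.26 to 0.99, adjusted p = 0.032). In linear terms the myb36-1 signal was 229% of the myb36-2 signal for AT1G71740 and 155% for AT1G30750. On the common scale the differences were 1.45 (adjusted p = 0.0074 in limma) and 0.89 (adjusted p = 0.019). The call of AT1G71740 was kept without any single array. That of AT1G30750 was lost without any single myb36-1 array or without myb36-2 replicate 3, with an adjusted p of up to 0.088 in limma and a difference of 0.43 to 0.81 over all omissions.

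These are 2 of 9 genes, where 15.4% of all tested probe sets differed as deposited and 4.15% on the common scale. Higher in myb36-1, the direction of both genes, were 0.926% of tested probe sets as deposited and 2.19% on the common scale. The median difference over all tested probe sets was -0.17 as deposited, the opposite direction, and 0.0068 on the common scale. The 2 genes are also those whose mutant arrays do not overlap, which held in either direction for 38.0% of tested probe sets as deposited.

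The other 7 genes did not pass, with adjusted p in limma of 0.46 to 0.99 as deposited and 0.12 to 0.98 on the common scale. Their differences, myb36-1 minus myb36-2, ran from -0.16 (AT2G40113) to 0.16 (AT5G43540) as deposited, and their 95% intervals lay within -0.52 and 0.48. The intervals leave room for differences of that size and do not show equal levels. On the common scale the differences ran from 0.013 (AT2G40113) to 0.44 (AT5G43540), with intervals within -0.36 and 0.76. There 2 of the 7 intervals did not include 0, those of AT5G43540 (0.12 to 0.76, adjusted p = 0.12 in limma) and AT5G65530 (0.0011 to 0.45, adjusted p = 0.24). Of all 9 genes, 7 had the higher mean in myb36-1 as deposited, as did 20.4% of tested probe sets. On the common scale 9 had, as did 51.4% of tested probe sets. AT2G40113 and AT5G42655 changed sign between these scales. The median difference of the 9 was 0.081 as deposited and 0.24 on the common scale.

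**Figure D3:**
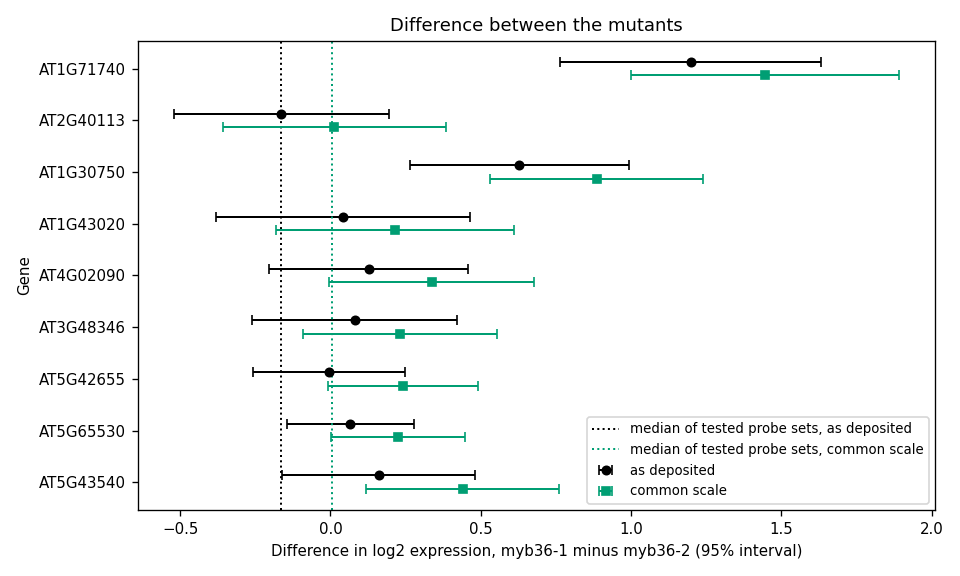
Difference in log2 expression between the mutants, myb36-1 minus myb36-2 (x axis), for each gene as deposited (circles) and on the common scale (squares), with 95% intervals from limma; dotted lines mark the median of all tested probe sets on each scale. Only AT1G71740 (1.20) and AT1G30750 (0.63) passed as deposited, and the same 2 genes on the common scale.

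Arrays of the same line were also compared across the 9 genes, to see whether the genes varied together where the line was the same. After each line's mean was subtracted, the 36 pairs of genes had correlations from -0.85 to 0.92 over the 9 arrays, with a mean of -0.046, and 17 pairs were above 0. Over all pairs of tested probe sets the mean was 0.00043. The genes followed the line closely (each correlated at 0.951 to 0.990 with the mean of the other 8 over the 9 arrays), as their choice would give, but within a line no common movement was seen at this number of arrays.

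For each of the 9 genes the 2 nearest measured genes on each side were taken in the gene order of assembly TAIR10.1, 36 genes in all, of which 11 adjoin the gene itself. In myb36-1, 1 of the 36 was called higher and 0 lower in limma (0 lower also at an unadjusted p under 0.05), where 0.495% of tested probe sets were called. In myb36-2, 11 were called higher and 0 lower as deposited (3 lower at an unadjusted p under 0.05), where 21.3% of tested probe sets were called. After common scaling 2 were higher and 3 lower, and 10.1% of tested probe sets were called. Among the 11 adjoining genes 0 passed in both mutants in limma, also at an unadjusted p under 0.05, and their changes ran from -0.17 to 0.093 in myb36-1 and from -0.23 to 0.51 in myb36-2. Of these 11, 3 were called higher in myb36-2 as deposited, where 19.3% of tested probe sets were. Their changes in myb36-2 on the common scale ran from -0.42 to 0.26 and 2 were called lower, AT2G40110 next to AT2G40113 (-0.42, adjusted p = 0.011 in limma) and AT4G02100 next to AT4G02090 (-0.32, adjusted p = 0.040). On that scale 5.39% of tested probe sets were called lower in myb36-2.

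The neighbour that passed in both mutants in 1 direction, as did 0.418% of tested probe sets, was AT1G30760 (13346474), 3 genes from AT1G30750. It was at 6.93, 7.12 and 7.22 in myb36-1 and at 7.17, 7.19 and 7.15 in myb36-2, against 5.32, 5.55 and 5.43 in Col-0, and no mutant array overlapped with Col-0. It rose by 1.66 ± 0.098 (SE, n = 3 arrays per line, adjusted p = 6.7e-05 in limma) in myb36-1 and by 1.73 ± 0.098 (adjusted p = 2.2e-05) in myb36-2, whereas AT1G30750 was lower. AT1G30757, which stands between them, was at 0.012 in myb36-1 and 0.23 in myb36-2 without passing. On the other side AT1G30740 and AT1G30730 were at 0.089 and 0.41 in myb36-1 without passing. Both rose in myb36-2 as deposited (0.51 and 0.43), and neither passed on the common scale (0.26 and 0.30). Whether opposite neighbours are more frequent than chance would give was not tested.

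LHCB4.3, a light-harvesting complex gene 2 genes from AT2G40113, did not pass in myb36-1 (0.40, adjusted p of 0.28 in limma) and rose by 1.03 in myb36-2 (adjusted p = 0.0016), and by 0.74 on the common scale (adjusted p = 0.010). It was at 3.54, 3.29 and 3.04 in myb36-1 and at 4.00, 3.88 and 3.87 in myb36-2, against 2.93, 2.78 and 2.96 in Col-0. These Col-0 values lie near the bottom of the arrays, whose 10th percentile was 2.58 to 2.64, so the size of the rise may be understated. AT5G42635, 6 genes from AT5G42655, was at 5.36, 3.92 and 5.005 in myb36-1 and at 5.03, 6.18 and 5.41 in myb36-2, against 3.29, 3.63 and 4.50 in Col-0. All myb36-2 arrays lay above all Col-0 arrays, while the myb36-1 arrays overlapped with both. It rose by 1.74 ± 0.44 in myb36-2 (adjusted p = 0.023 in limma), a call lost on the common scale (1.48, adjusted p = 0.059), and did not pass in myb36-1 (0.96, adjusted p = 0.47).

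**Figure D4:**
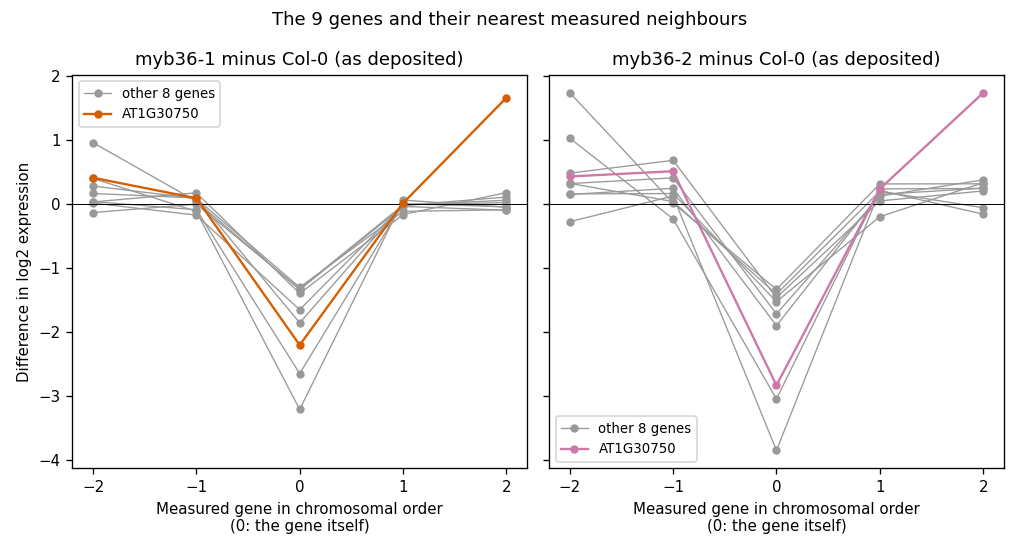
Change in log2 expression against Col-0 (y axis) in myb36-1 (left) and myb36-2 (right), as deposited, for the 9 genes (position 0) and the 2 nearest measured genes on each side in chromosomal order; lines join the genes of 1 neighbourhood. The genes themselves lie between -3.84 and -1.30, while AT1G30760, in the coloured neighbourhood of AT1G30750, stands at 1.66 in myb36-1 and 1.73 in myb36-2, where AT5G42635, at position -2 from AT5G42655, is as high (1.74).

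Genes with the most similar course over the 9 arrays were ranked by Pearson r with the mean profile of the 9 genes, among 16537 other genes, as a description. The 5 highest were DIR9 (AT2G39430, r = 0.993), a gene of the dirigent protein family, some of whose members guide lignin formation, B70 (AT4G21340, r = 0.983), AT5G52790 (r = 0.981), SGN1 (AT1G61590, r = 0.970), a receptor-like cytoplasmic kinase of barrier surveillance, and AT2G38390 (r = 0.958). Of these, 4 were also among the 5 highest on the common scale, AT2G38390 being the exception. The log2 change of B70 was -1.13 ± 0.098 in myb36-1 and -1.20 ± 0.098 in myb36-2 (± SE, 3 arrays a line). AT5G52790 changed by -2.38 ± 0.12 in myb36-1 and -2.20 ± 0.12 in myb36-2, and SGN1 by -1.24 ± 0.13 in myb36-1 and -1.34 ± 0.13 in myb36-2. AT2G38390 changed by -0.83 ± 0.12 in myb36-1, a call kept in 3 of 9 omissions of 1 array, and by -0.94 ± 0.12 in myb36-2.

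The 5 most opposite were AT1G30760 (r = -0.990), AT4G00910 (-0.983), AT1G65500 (-0.981), AT1G49570 (-0.979) and the peroxidase gene Prx37 (AT4G08770, -0.977). AT1G30760 is thus also the gene 3 places from AT1G30750. Only 1 of these 5, AT1G49570, was among the 5 most opposite on the common scale, where AT1G30760 ranked 9th with r = -0.966. Prx37 rose by 0.91 ± 0.082 in myb36-1 and by 0.87 ± 0.082 in myb36-2. Since every line has 3 arrays, these correlations largely follow the 3 line means.

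Of 27 Casparian strip genes listed for comparison, 11 were measured. CASP1 to CASP5 and ESB1 had no probe set of their own in the annotation used. Part of the list comes from published studies of myb36 mutants, so its direction is no independent evidence. In myb36-1, 4 of the 11 fell and 0 rose in limma (1 was higher at an unadjusted p under 0.05), with 0.268% of tested probe sets called lower. In myb36-2, 6 fell and 1 rose, with 2.02% called lower and 19.3% higher as deposited. On the common scale 7 fell and 1 rose, with 5.39% called lower and 4.66% higher. The 4 that fell in both were DIR9 (-3.07 in myb36-1 and -3.84 in myb36-2, as measured), the dirigent protein gene DIR24 (AT3G55230, -2.20 and -5.31), the peroxidase gene PER9 (AT1G44970, -1.45 and -0.83) and SGN1. DIR18 (AT4G13580) was at -1.43 in myb36-1, just short of a call (adjusted p = 0.052 in limma). It was called lower in myb36-2 (-1.38, adjusted p = 0.0072 in limma). Between the mutants, 2 of the 11 passed as higher in myb36-1 in limma and 1 as lower. DIR9 and DIR24 were higher, by 0.77 and 3.11, the direction of AT1G71740 and AT1G30750. PER9 was lower in myb36-1 by 0.62 (log2 difference -0.62), a difference that did not pass on the common scale. The rest did not pass, among them SGN1 (0.10, adjusted p = 0.63 in limma) and DIR18 (-0.050, adjusted p = 0.91). Of tested probe sets, 0.926% passed as higher in myb36-1 and 14.5% as lower, as deposited. After common scaling the share passing as higher was 2.19%. On the myb36-2 arrays DIR9 lay at the 4.99th to 8.34th percentile and DIR24 at the 3.10th to 22.9th, near the bottom of the arrays, so their falls in myb36-2 and their differences between the mutants are best read as lower limits in size. The median change of the 11 was -0.35 in myb36-1 and -0.40 in myb36-2, against -0.0054 in myb36-1 and 0.16 in myb36-2 over all tested probe sets. It was -0.34 in myb36-1 and -0.53 in myb36-2 on the common scale.

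In such whole-root samples fewer cells of a type and less RNA per cell cannot be told apart. Of 7 endodermal markers, 2 were measured, DIR9 and SGN1. Their summed log2 level was 10.5 to 11.04 in myb36-1 and 9.70 to 10.2 in myb36-2, against 15.04 to 15.07 in Col-0. Both are Casparian strip genes already given above as lower in both mutants. This sum is therefore no separate measure of endodermal cells. The suberised endodermis markers FACT and LTPG15, 2 of 4 listed, summed to 17.9 to 18.1 in myb36-1 and 18.3 to 18.5 in myb36-2, against 18.2 to 18.3 in Col-0. In myb36-2 FACT was called higher as deposited (0.28, adjusted p = 0.035 in limma) but not on the common scale (0.16). LTPG15 was at -0.15 there without passing. In myb36-1 FACT was at 0.059 and LTPG15 at -0.34, neither passing. On the common scale this pair summed to 18.1 to 18.4 in myb36-2 and 18.3 to 18.4 in Col-0. The root hair markers EXPA7 and EXPA18, 2 of 3 listed, summed to 14.4 to 14.8 in myb36-1 and 14.5 to 14.9 in myb36-2, against 14.3 to 14.9 in Col-0. The 3 cortex markers summed to 14.99 to 16.01 in myb36-1 and 16.3 to 17.0 in myb36-2, against 14.5 to 15.8 in Col-0. These sums on the common scale were 15.2 to 16.2 in myb36-1 and 15.96 to 16.6 in myb36-2, against 14.7 to 16.02 in Col-0, so that myb36-2 and Col-0 overlapped. In myb36-2, 2 of the 3 cortex markers were called higher as deposited and 1 on the common scale, and their median change was 0.63 as deposited and 0.33 on the common scale. The leaf markers RCA and LHCB4.1, 2 of 4 listed, gave a signal at the 62.5th to 75.0th percentile on the arrays of all 3 lines, and RCA fell by 0.50 in myb36-2 as deposited and by 0.66 on the common scale. LHCB4.1 was at 0.015 in myb36-2 as deposited and at -0.13 on the common scale, neither passing. The part of any of these cell types in the falls of the 9 genes was not tested.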

How the data were processed

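Total RNA of roots was measured on 9 Affymetrix arrays. The deposited log2 values come from RMA, per the submitters' processing notes, a method that subtracts background, makes array distributions alike and condenses probes to probe sets. It compresses differences of dim probe sets. The sources used here give neither its version nor whether the 9 arrays were normalised as 1 batch. Of 38408 probe sets, the first 7083 in identifier order, none paired with a gene, were left out, and 31325 were tested. Of 16722 probe sets paired with 1 gene, 16720 matched a gene table of assembly TAIR10.1, from which names and neighbour order were taken; the brightest stood for a gene with several.

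Each probe set was fitted with 1 mean per line in limma 3.58.1 (R 4.3.3) with empirical Bayes moderation, two-sided, with Benjamini-Hochberg adjustment over all tested probe sets. Calls had an adjusted p under 0.05. On simulated data of 31325 probe sets the contrast of the mutants recovered 83 of 100 changes of 1 log2 unit and 98 of 100 of 2 units, with 9 false calls. Apart from these changes the simulated lines had equal means, without the higher level of myb36-2 as a whole. The counts therefore do not give the recovery or the false calls of the real contrast. The genes and lists were chosen with earlier results of these data known. The common scale is a quantile normalisation of the tested probe sets over all 9 arrays. The named genes are all 9, list genes and neighbours called in both mutants, and the 5 genes most alike and most opposite in course. LHCB4.3, AT5G42635, AT2G40110, AT4G02100, DIR18, the other neighbours of AT1G30750, and the markers were named beyond that after their values were seen. Same-numbered arrays of different lines deviated from their line means with correlations of -0.19 to 0.085, none of 9 over 0.1. No shared deviation by number was thus seen, which does not show whether same-numbered arrays were handled together. Alternatives covered scaling, filters, moderation, arrays and probe sets in the fit, the threshold, the replicate block, neighbours per side and the omission of each array. A planned comparison with genes of similar protein sequence was not run.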

Additional observations from a re-analysis of the deposited data

Results flagged for a closer look

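The changes against Col-0 differed between the mutants for AT1G71740 and AT1G30750. Relative to myb36-2, myb36-1 had a level of AT1G71740 higher by 1.20 and of AT1G30750 higher by 0.63, both on the log2 scale and past the threshold in a direct test of the mutants. The call of AT1G71740 was kept in 9 of 9 omissions of 1 array, that of AT1G30750 in 5 of 9. AT1G30750 also did not pass with all deposited probe sets or with the arrays of the compared lines only. As deposited, 15.4% of all tested probe sets differed between the mutants.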

How the results depend on the processing

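All 9 genes were called lower in both mutants under every alternative that tested them, including the common scale, arrays centred on their medians, the stricter threshold of 0.01 and the omission of each array (9 to 9). These contrasts on the same arrays chose the genes, so the counts follow from that choice and are no separate evidence. With brighter probe sets only, 5 of the 9 were tested and 5 called. That filter used the mean over all 9 arrays, so high Col-0 values helped genes to pass it. The number that differed between the mutants, 2, was also 2 on the common scale, with centred arrays and with trended robust moderation. It was 1 with all deposited probe sets, with the arrays of the compared lines only, with brighter probe sets only (AT1G71740 being left out there) and at the stricter threshold, and 1 to 2 without single arrays. With the replicate number as a block it was 2, as it was on the common scale with the block, an alternative added after the data were seen, as was the ranking by likeness on that scale; the block ended no call among the 9 genes. The neighbour called in both mutants was called under the other alternatives but not with 1 neighbour on each side, which leaves it out and gave 0. Of the Casparian strip genes 3 to 5 were called in both. Small differences between the mutants that were not called changed sign. AT2G40113 was at 0.077 with centred arrays and 0.013 on the common scale, with and without the block, and AT5G42655 at 0.24 in all of these. Without single arrays AT1G43020 ranged from -0.10 to 0.28, AT3G48346 from -0.10 to 0.21, AT5G42655 from -0.080 to 0.082 and AT5G65530 from -0.011 to 0.15. A call for AT2G38390 in myb36-1 was lost with the block on the common scale (-0.79, adjusted p = 0.063 in limma). The planned comparison with genes of similar protein sequence, with its E value alternative, was not run. The signal of AT2G40113 and AT1G43020 near the bottom of the mutant arrays limits what can be said of their levels and differences there. The same holds in part for AT1G71740 in myb36-2, where its percentiles overlapped theirs.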
